A study of Mus musculus with 6 samples.

Results

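Of 17577 genes listed for mouse germinal vesicle oocytes, 94 (0.535%) had at least 1 FPKM in all 3 Bnc1tr/tr libraries and at most 0.1 FPKM in all 3 WT libraries. FPKM gives the fragments of a gene relative to the length of its transcript and to the mapped fragments of the library. The 94 genes were selected on these measured values, so the gap between the genotypes is a description and no test of it is given. The oocytes came from ovaries of C57BL/6 J mice aged 12 weeks, either WT or Bnc1tr/tr, which are homozygous for a small deletion that shifts the reading frame of *Bnc1* and truncates basonuclin 1, a zinc finger protein of germ cells and stratified epithelium. Per the methods of the study, littermates were compared, antral follicles were punctured after a dose of PMSG given to both genotypes, and cDNA of a single oocyte was amplified before sequencing. The allele is carried by every cell of the animal, so the oocytes grew in ovaries whose other cells were mutant too. Each group held 3 libraries. The study calls them biological replicates, and the labels do not tie a library to an animal.

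A fully grown oocyte holds a large store of transcripts made during its growth, and transcription falls silent before ovulation. Genes of other lineages are largely kept off in this cell, whose chromatin and DNA methylation are set during growth. In a lysate of a picked oocyte, transcripts of the oocyte and of any adhering cell cannot be told apart.

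Libraries carried the transcripts of an oocyte in both groups. Of 18 oocyte genes, 17 passed a mean of 1 FPKM, and their summed level ran from 17718 to 19924 FPKM in Bnc1tr/tr and from 15494 to 20912 in WT. *Bnc1* itself was listed at 9.04, 6.51 and 5.83 FPKM in Bnc1tr/tr replicates 1 to 3 and at 13.17, 12.54 and 16.23 in WT. More genes reached 1 FPKM in Bnc1tr/tr (10682 to 11035 per library) than in WT (9518 to 9748). Depth estimated from the steps between low FPKM values was 12.8 to 21.1 M fragments (M, mega) per library, least surely in WT replicate 1, where 2 subsets of the genes gave 14.1 M and 29.97 M. At that depth 3 fragments on the transcript of a median member equalled 0.0521 to 0.0735 FPKM in WT. For *Frg2f4*, whose annotated transcript is the shortest, 3 fragments equalled 3.65 to 5.14 FPKM, and for the other members with a transcript model at most 0.580 FPKM. A gene listed at 0 may have been present below that level, which covers counting error only.

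The upstream sequences of the most abundant members are shown because the reading of whole promoters follows later. Of the 4 highest members with a promoter in RefSeq (GRCm38.p6), the window of *Fads2* lies within the GENCODE transcript and is left out. The bases before the annotated gene are given 5′ to 3′ on the strand of the gene, with matches to a GC box (GGGCGG) or a CCAAT box (CCAAT) on either strand in capitals. They lie at chr7:19822825-19823005 (minus strand), chr2:164857712-164857958 (minus strand) and chr1:160044130-160044379 (plus strand).
*Bcl3*: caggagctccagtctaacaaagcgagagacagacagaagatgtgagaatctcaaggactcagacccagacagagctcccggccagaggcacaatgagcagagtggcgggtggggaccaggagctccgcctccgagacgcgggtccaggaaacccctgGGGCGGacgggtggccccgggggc
*Pltp*: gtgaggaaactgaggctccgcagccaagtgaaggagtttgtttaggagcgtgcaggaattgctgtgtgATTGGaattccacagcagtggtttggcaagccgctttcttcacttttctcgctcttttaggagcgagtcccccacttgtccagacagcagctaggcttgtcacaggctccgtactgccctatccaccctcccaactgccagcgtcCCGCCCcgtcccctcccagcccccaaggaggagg
*4930523C07Rik*: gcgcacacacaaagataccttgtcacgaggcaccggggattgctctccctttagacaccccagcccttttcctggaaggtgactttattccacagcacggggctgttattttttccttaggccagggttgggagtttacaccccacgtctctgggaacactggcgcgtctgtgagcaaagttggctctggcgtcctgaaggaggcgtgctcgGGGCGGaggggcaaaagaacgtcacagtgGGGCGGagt

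The sequence before *Bcl3* (181 bases) held 10 CpG dinucleotides and 1 GC box, that before *Pltp* (247 bases) held 9 CpG, 1 GC box and 1 CCAAT box, and that before *4930523C07Rik* (250 bases) held 13 CpG and 2 GC boxes. A match to these letters is a description and not a bound site.

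The members were listed at or near 0 in WT and mostly at a low level in Bnc1tr/tr. In WT, 42 of the 94 were listed at 0 in all 3 libraries, 27 in 2, 19 in 1 and 6 in none, so that 199 of 282 WT values (70.6%) were 0. Estimated fragments were at most 3 in every WT library for 71 of the 92 members with a transcript model. In Bnc1tr/tr the mean per member ran from 1.17 to 42.5 FPKM with a median of 2.65, and the median value in a library stood for an estimated 122 fragments. Only 5 members exceeded 9.95 FPKM, the median of the 10919 genes with a Bnc1tr/tr mean of at least 1, and 28 had a mean under 2. Summed over the 94, FPKM was 473, 404 and 333 in Bnc1tr/tr replicates 1 to 3 and 1.47, 1.47 and 1.13 in WT, that is 0.0720%, 0.0574% and 0.0484% of the library total in Bnc1tr/tr. The members therefore made up a small part of the oocyte transcriptome in each mutant library.

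**Figure D1:**
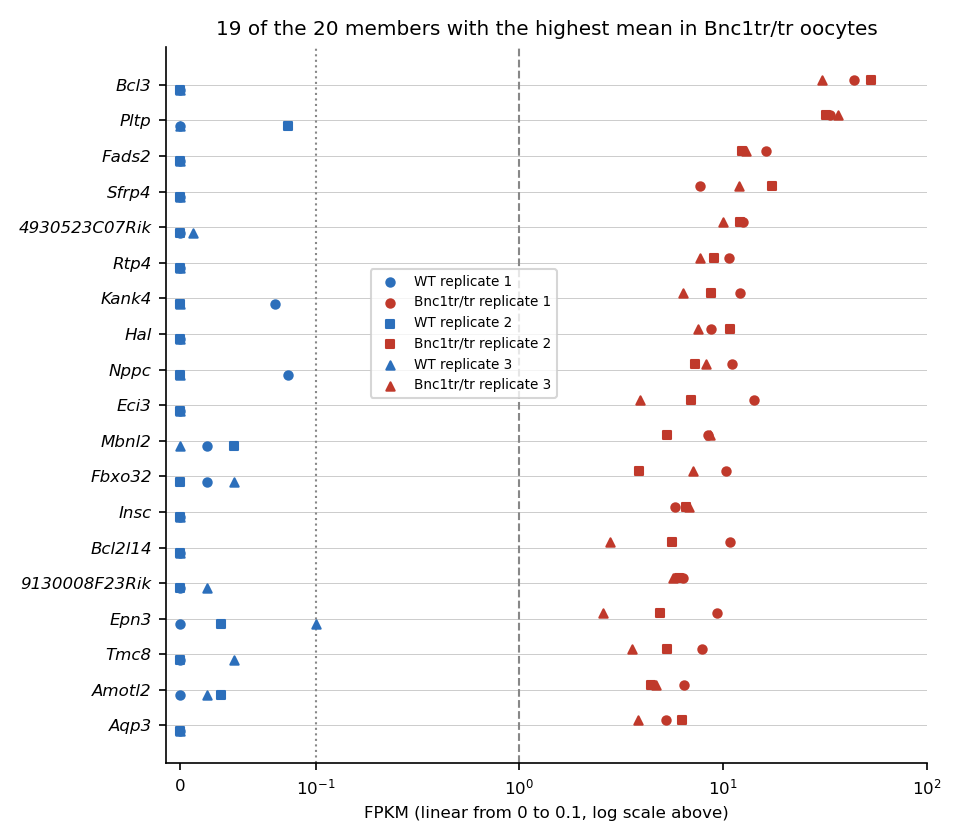
Deposited FPKM of 19 of the 20 members with the highest Bnc1tr/tr mean, on an axis that is linear from 0 to 0.1 and logarithmic above, with 1 symbol per library; the dotted and dashed lines mark the 0.1 and 1 FPKM of the rule. Bnc1tr/tr values run from 2.58 (Epn3, replicate 3) to 52.98 FPKM (Bcl3, replicate 2), and WT values from 0 to 0.1.

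The rule sets a sharp edge in a gradual distribution. The members nearest the floor were *Gm15411* (1.57, 2.2 and 1 FPKM in Bnc1tr/tr, and 0.10, 0 and 0 in WT), *Lrrk1* (1.01, 1.19 and 1.3, and 0 in each WT library) and *Dscaml1* (3.27, 1.26 and 1.03, and 0, 0 and 0.01). Just below the floor lay *Ppp1r3g* (0.99, 1.27 and 1.37 in Bnc1tr/tr, and 0 in each WT library) and *Slfn8* (0.98, 1.40 and 1.51, and 0.09, 0 and 0). The ceiling of 0.10 was reached by 5 members, *Adamtsl3*, *Epn3*, *Foxn4*, *Gm15411* and *Pitpnc1*. Just above it lay *Elf5* (13.41, 9.61 and 7.40 in Bnc1tr/tr, and 0.11, 0 and 0 in WT), *Igtp* (20.92, 3.18 and 4.78, and 0.11, 0.10 and 0) and *Ap1g2* (7.95, 6.55 and 3.77, and 0.11, 0.08 and 0.08). Genes on both sides of each edge thus differ by a few hundredths of an FPKM.

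The mirror of the rule, at least 1 FPKM in all WT and at most 0.1 in all Bnc1tr/tr libraries, held 3 genes. *Mdga2*, a neuronal adhesion protein, was listed at 1.90, 2.34 and 2.61 FPKM in WT and at 0 in each Bnc1tr/tr library. *Plxdc2*, a membrane protein of the plexin domain family, had 1.56, 1.23 and 1.22 in WT and 0.01, 0.02 and 0 in Bnc1tr/tr. *Tub*, the gene of the tubby protein, had 2, 2.27 and 1.29 in WT and 0.05, 0.09 and 0 in Bnc1tr/tr. The 2 counts start from different pools, since 3276 listed genes were at or below 0.1 FPKM in all WT libraries and 1887 in all Bnc1tr/tr libraries.

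Between the genotypes, 66 of the 94 passed the filter of a mean of 1 FPKM over all 6 libraries, and all 66 were called higher in Bnc1tr/tr by limma, with a median log2(FPKM + 1) difference of 2.03 and a range from 1.52 to 5.41, sizes that depend on the 1 FPKM added before the logarithm. Of all 10560 tested genes 24.1% were called higher and 7.68% lower, with a median of 0.15. The rule used this contrast, so nothing is read from the members' count. Scaling shifted the whole table, from 2547 higher and 811 lower genes as deposited to 1919 and 1542 after median-ratio scaling, 1812 and 1804 after upper-quartile scaling and 1627 and 1848 after quantile normalization, where the median difference was -0.05, -0.10 and -0.10. The rule held for 81, 81 and 39 of the members after these 3 scalings, and no other gene met it.

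By role, enzymes and transporters formed the largest group, with 19 members, a median of 2.18 FPKM, and 9 members at 0 in all WT libraries. Groups were assigned by hand from general knowledge of each gene after the members were known, and they are a way of ordering the genes, not a result. *Pltp*, which transfers phospholipids between lipoproteins in plasma, had 33.52, 31.91 and 36.75 FPKM in Bnc1tr/tr and 0, 0.08 and 0 in WT. *Fads2*, the desaturase that begins the synthesis of long polyunsaturated fatty acids and is abundant in liver, had 16.34, 12.34 and 12.95 and was listed at 0 in each WT library. These levels varied little, with a highest-to-lowest ratio of 1.15 for *Pltp* and 1.32 for *Fads2*.

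*Hal*, the histidine ammonia-lyase of liver and skin, had 8.76, 10.80 and 7.52 FPKM, with 0 in WT. *Eci3*, an isomerase of unsaturated fatty acid oxidation, had 14.23, 6.93 and 3.90, with 0 in WT. *Aqp3*, a channel for water and glycerol in epithelia, had 5.27, 6.30 and 3.82, with 0 in WT. *Eci3* spread most of these 3, and their Bnc1tr/tr values lay apart from those of the WT libraries, as the rule requires.

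The other enzymes and transporters were lower. *Uox* (mean 3.47 FPKM), the urate oxidase of liver peroxisomes, and *Tat* (2.06), the tyrosine aminotransferase of liver, joined *Hal* and *Ppp1r3b* (1.55), a regulator of liver glycogen, as genes best known from hepatocytes. Lipid enzymes included *Acer2* (1.84), a ceramidase, *Acsbg1* (1.61), an acyl-CoA synthetase of brain, adrenal gland and gonads, *Enpp6* (1.37), a choline phosphodiesterase, and *Hsd17b14* (2.02), a steroid dehydrogenase. *Pitpnc1* (4.02) transfers phosphatidylinositol and *Abca8a* (2.18) belongs to the ABC lipid transporters. *Car6* (3.91) is the secreted carbonic anhydrase of saliva, *Chst15* (3.77) sulphates chondroitin sulphate, *Duox2* (1.75) makes hydrogen peroxide in thyroid and gut, *Tst* (1.41) is a mitochondrial sulphurtransferase, and *Slc46a3* (1.76) is a lysosomal transporter. Genes known from liver, brain, salivary gland and thyroid were thus found side by side at 1.37 to 4.02 FPKM.

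**Figure D2:**
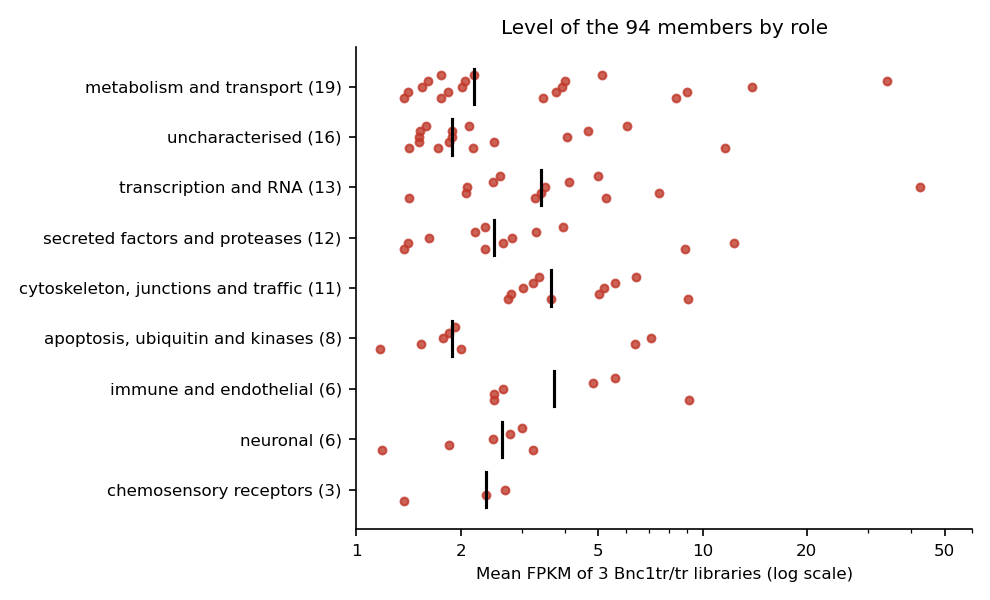
Mean FPKM of the 3 Bnc1tr/tr libraries for each of the 94 members (points, log axis), by role group with the number of members in brackets; bars mark the median of each group. Medians run from 1.89 FPKM (uncharacterised genes and genes of apoptosis, ubiquitin and kinases) to 3.73 (immune and endothelial genes), and the ranges of the groups overlap, except that chemosensory receptors end at 2.69 and genes of the cytoskeleton, junctions and traffic begin at 2.74 FPKM.

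Transcription factors and RNA-binding proteins numbered 13, with a median of 3.41 FPKM. *Bcl3*, an atypical IκB protein that acts with NF-κB dimers in the nucleus, was the most abundant member, at 44.02, 52.98 and 30.60 FPKM in Bnc1tr/tr, and was listed at 0 in each WT library. *Mbnl2*, a splicing regulator, had 8.46, 5.33 and 8.64, with 0.02, 0.04 and 0 in WT. The library with the highest value differed between them, and was replicate 2 for *Bcl3* and replicate 3 for *Mbnl2*.

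Developmental regulators of many lineages were among the rest. *Fli1* (mean 4.10 FPKM) acts in blood and endothelium and *Gfi1* (3.41) in blood cells. *Sp9* (3.52) acts in forebrain interneurons, *Foxn4* (2.60) in retina and spinal cord, *Dmrt3* (2.48) in spinal interneurons, *Hoxb1* (2.07) in the hindbrain and *Sim2* (1.42) in brain and muscle development. *Esx1* (3.28), an X-linked homeobox gene, is known from placenta and testis. *Nxf2* (5.0), an X-linked RNA export factor, and *Piwil4* (2.09), a PIWI protein that directs DNA methylation at transposons, are known from male germ cells. *Sim2* had the lowest ratio of its highest to its lowest Bnc1tr/tr library, at 1.35, 1.42 and 1.48 FPKM, and *Esx1* the highest, at 7.05, 1.66 and 1.13, a ratio of 6.24.

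Secreted factors and proteases numbered 12, with a median of 2.5 FPKM and 8 members at 0 in all WT libraries. *Sfrp4*, a secreted modulator of Wnt signalling, had 7.67, 17.31 and 11.98 FPKM, with 0 in WT. *Nppc*, the precursor of C-type natriuretic peptide, which mural granulosa cells release to hold the oocyte in meiotic arrest, had 11.02, 7.31 and 8.27, with 0.08, 0 and 0 in WT. *Nppc* spread by a ratio of 1.51 over the Bnc1tr/tr libraries and *Sfrp4* by 2.26.

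The remaining secreted factors had means of 1.37 to 3.95 FPKM. *Ccl7* (3.95) is a chemokine for monocytes, *Bmp4* (2.2) a ligand that in the ovary comes from theca cells, and *Egfl8* (2.81) an EGF-like protein. *Adamtsl3* (2.65) belongs to matrix proteins, and *Tll2* (1.37), *Mep1a* (1.62) and *Rhbdl2* (1.41) are proteases, *Mep1a* of kidney and gut. *Sycn* (2.36) is known from zymogen granules of the pancreas, *Lyg2* (2.35) is a lysozyme-like gene, and *Parm1* (3.30) a mucin-like protein of prostate. *Adamtsl3*, with 2.64, 2.93 and 2.37 in Bnc1tr/tr, was the member with the highest WT mean. Its WT values, 0.09, 0.10 and 0.10, stood for an estimated 9, 12 and 15 fragments, so it was found in each WT library.

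Granulosa markers were set beside *Nppc*. Of 20 markers 17 were listed, 2 of 6 tested were called higher and 0 lower, and their sum ran from 46.7 to 62.3 FPKM in Bnc1tr/tr and from 23.3 to 45.5 in WT. Called higher were *Fshr*, the receptor for follicle-stimulating hormone, at 4.54, 5.83 and 5.37 FPKM in Bnc1tr/tr and 0.31, 0.74 and 0 in WT, and *Kitl*, the ligand of *Kit*, at 3.1, 1.94 and 2.33 against 1.13, 1.12 and 1.18. *Cyp19a1*, the aromatase, was the most abundant marker, at 27.49, 44.41 and 33.46 FPKM against 23.45, 28.98 and 17.41, and was not called. *Inha* was at 0.18, 1.81 and 0.09 FPKM in Bnc1tr/tr and 6.78, 3.45 and 0.04 in WT, while *Foxl2*, *Amhr2* and *Slc38a3* were at 0 in each Bnc1tr/tr library and at most 0.21 FPKM in WT. The theca, luteal and stromal list summed to 11.8 to 15.8 FPKM in Bnc1tr/tr and 2.80 to 5.57 in WT. Its 2 tested genes, *Cyp11a1* and *Dcn*, were called higher. Among those too low to be tested, *Lum* and *Pdgfra* were higher in each Bnc1tr/tr library than in any WT library. *Hsd3b1* went the other way, at 0.1, 0 and 0 FPKM against 1.53, 1 and 0, and *Lhcgr* was at 0 in each Bnc1tr/tr library. *Insl3*, *Col1a2*, *Col3a1*, *Tagln* and *Ogn* had no row. The part of granulosa, theca and stromal cells in the levels of *Nppc* and *Bmp4* was not tested.

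Genes of the cytoskeleton, junctions and membrane traffic numbered 11, with a median of 3.64 FPKM. *Kank4*, an adaptor of the cortical cytoskeleton, had 12.15, 8.74 and 6.39 FPKM, with 0.07, 0 and 0 in WT. *Insc*, which orients the spindle in asymmetric division, had 5.81, 6.57 and 6.83, with 0 in WT. *Epn3*, an epsin of epithelia, had 9.29, 4.91 and 2.58, with 0, 0.03 and 0.10 in WT. *Insc* was among the steadiest members and *Epn3* among the least steady, with ratios of 1.18 and 3.6.

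*Amotl2*, an angiomotin that links junctions to Hippo signalling, had 6.41, 4.45 and 4.69 FPKM, with 0, 0.03 and 0.02 in WT. The hair keratin gene *Krt87* had 6.46, 4.72 and 3.85, with 0 in WT, and shares 52.4% of its 31-base words with other genes, so its reads are uncertain. *Krt18*, a keratin of simple epithelia and the member on the list for ovarian surface epithelium, had 6.11, 3.72 and 1.08, with 0 in WT. Without *Krt18*, whose call the rule fixed, the other 2 tested genes of that list were called higher, and the list summed to 9.19 to 28.1 FPKM in Bnc1tr/tr and 1.12 to 1.76 in WT. They were *Krt8*, the partner of *Krt18*, and *Upk3b*, at 3.36, 2.02 and 1.4 FPKM against 0.66, 0.37 and 0.63, and both entered the test through their Bnc1tr/tr values. *Lgr5*, too low to be tested, had 1.3, 0.7 and 1.36 FPKM against 0.03, 0.08 and 0.21, while *Wt1* and *Upk1b* were at 0 to 0.08 FPKM in both genotypes. The part of such cells in *Krt18* was not tested.

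Other members of this group were *Pllp* (mean 3.37 FPKM), a membrane protein of myelin and epithelia, *Cavin2* (3.23), a coat protein of caveolae, *Phldb2* (3.02), an organiser of cortical microtubules, *Ston1* (2.80), an endocytic adaptor, and *Tbcel* (2.74), a regulator of tubulin.

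Genes best known from immune cells and endothelium numbered 6, with a median of 3.73 FPKM, the highest of the groups. *Rtp4*, an interferon-induced chaperone of receptors, had 10.74, 8.98 and 7.70 FPKM, with 0 in WT. *Tmc8*, a membrane protein of lymphocytes and skin, had 7.86, 5.29 and 3.57, with 0, 0 and 0.04 in WT. *Sele* (mean 4.81), the selectin of activated endothelium, *Clec2g* (2.65), a lectin-like receptor, *Sit1* (2.49), an adaptor of T cells, and *Blnk* (2.49), the linker protein of B cells, completed them. All 6 were present in each of the 3 mutant oocyte libraries, as the rule requires.

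Markers of these cell types varied between the mutant libraries in another way. Of 15 immune markers 9 were tested, 2 were called higher and 0 lower, and their sum was 88.3 to 168 FPKM in Bnc1tr/tr and 78.5 to 104 in WT. *Lyz2*, *Tyrobp*, *Fcer1g* and *Cd74* were above 0 in Bnc1tr/tr replicates 1 and 2 and at 0 in replicate 3 and in each WT library, and *Ptprc*, the pan-leukocyte marker, was at 0.30, 0.07 and 0 in Bnc1tr/tr. *Rtp4* and *Blnk* had 7.70 and 2.56 FPKM in replicate 3, where those 4 markers and *Ptprc* were at 0. The endothelial list had 0 of 3 tested genes called higher and 1 lower, with sums of 7.42 to 12.3 FPKM in Bnc1tr/tr and 12.5 to 15.6 in WT. Of its genes too low to be tested, *Kdr* had 1.54, 0.64 and 0.53 FPKM against 0.1, 0.12 and 0.07. *Cldn5* had 0.38, 0.69 and 0.24 against 0.06, 0.2 and 0, while *Cdh5*, *Vwf* and *Egfl7* were at 0 to 0.15 FPKM in both genotypes.

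Neuronal genes numbered 6, with a median of 2.63 FPKM and none at 0 in all 3 WT libraries. They were *Adam23* (mean 3.24), an adhesion protein, *Sv2a* (3.01), a protein of synaptic vesicles, *Kcnn3* (2.77) and *Kcnj9* (2.48), which are potassium channels, *Dscaml1* (1.85), an adhesion protein, and *Dclk1* (1.19), a microtubule-binding kinase. Chemosensory receptors numbered 3, *Olfr1342* (2.69), *Vmn1r231* (2.36) and *Taar7f* (1.37), one from each of the odorant, vomeronasal and trace amine families. *Taar7f* shares 65.1% of its 31-base words with other genes.

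Regulators of apoptosis, ubiquitin ligases and kinases numbered 8. *Bcl2l14*, a BCL2 family protein known from testis, had 10.76, 5.63 and 2.79 FPKM, with 0 in WT, and *Bcl2*, the founding inhibitor of apoptosis, had 1.55, 1.18 and 1.88, with 0, 0.01 and 0.03 in WT. *Fbxo32*, the muscle F-box protein atrogin-1, had 10.34, 3.86 and 7.15, with 0.02, 0 and 0.04 in WT, and *Fbxo27*, an F-box protein for glycoproteins, had 3.26, 1.25 and 1.26, with 0, 0.04 and 0. The highest value of all 4 but *Bcl2* was in replicate 1. *Usp17la*, a deubiquitinase on the list of genes of the 2-cell embryo, had 3.07, 1.05 and 1.89, with 0, 0.03 and 0 in WT. Without *Usp17la* that list had 4 of 11 tested genes called higher and 2 lower, with sums of 862 to 1044 FPKM in Bnc1tr/tr and 1015 to 1098 in WT. The kinases were *Mylk4* (mean 1.85), *Hunk* (1.78) and *Lrrk1* (1.17).

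Genes without a role that could be given numbered 16, with a median of 1.89 FPKM. The highest was *4930523C07Rik*, at 12.59, 12.17 and 9.96 FPKM, with 0, 0 and 0.01 in WT, followed by *9130008F23Rik*, at 6.33, 6.10 and 5.66, with 0, 0 and 0.02. Both varied little, with ratios of 1.26 and 1.12. The genes *Frg2f4*, *Frg2f10* and *Frg2f13* lie together on chromosome 14. *Frg2f10* and *Frg2f13*, 2.1 kb apart, were listed with the same value in every library (1.45, 1.31 and 1.79, and 0, 0 and 0.06 in WT), so the split of reads between them is uncertain, and *Frg2f4* had 1.13, 2.86 and 1.66, with 0 in WT. The values of *Frg2f4* stood for an estimated 1, 2 and 1 fragments, so neither its presence nor its absence is resolved. *Gm4340* (mean 4.05), all of whose 31-base words occur in other genes, is uncertain as well. The others were *Tmem213* (4.65), *Tmem252* (2.5), *9330159F19Rik* (2.17), *1700012B07Rik* (2.12), *Gm128* (1.89), *Gm5414* (1.85), *Vwa5b2* (1.72), *Gm15411* (1.59), *AI661453* (1.53) and *Tmem211* (1.42).

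The members differed in level between the 3 Bnc1tr/tr libraries. Replicate 1 was the highest library for 53 of 94 members (56.4%), replicate 2 for 26 and replicate 3 for 15, and replicate 3 was the lowest for 52 (55.3%). Among the 10919 genes with a Bnc1tr/tr mean of at least 1 FPKM, replicate 1 was the highest for 42.7% and replicate 3 the lowest for 36.9%. Median member FPKM was 3.10, 2.44 and 2.08 in replicates 1 to 3.

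The ratio of the highest to the lowest Bnc1tr/tr library was 1.63 in the median member, under 1.5 for 36 members and over 3 for 11. Those 11 were *Esx1*, *Car6*, *Ccl7*, *Krt18*, *Pllp*, *Sycn*, *Bcl2l14*, *Eci3*, *Epn3*, *Bmp4* and *Dscaml1*, and each of the 11 was highest in replicate 1. *Ccl7* stood at 8.59, 1.75 and 1.51 FPKM, *Car6* at 6.66, 3.97 and 1.11, and *Pllp* at 7.31, 1.49 and 1.32. The median coefficient of variation of the members was 25.3%, against 18.4% for the 8071 other genes in the same range of Bnc1tr/tr means. Levels were not matched within that range, so their part in this difference was not tested. With replicate 1 left out, 112 genes met the rule.

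**Figure D3:**
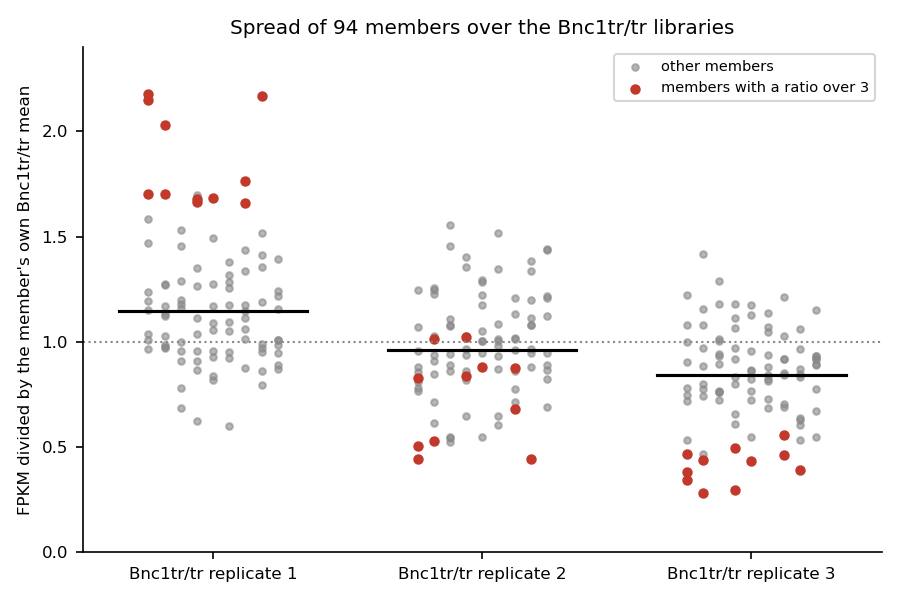
FPKM of each of the 94 members in each Bnc1tr/tr library divided by the member's own mean of the 3 libraries, with the median as a bar; red points are the 11 members whose highest library exceeded the lowest by a ratio over 3. All 11 red points lie highest in replicate 1.

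In the genome the members were scattered. They lay on 18 chromosomes, at most 9 of them on 1 chromosome (chromosome 7), with 0 on chromosomes 12, 18 and Y. Chromosome 7 held 9.57% of the members and 8.27% of the listed genes, and chromosomes 12, 18 and Y held 3.33%, 2.46% and 0.0115% of the listed genes. Among 94 members, 1 pair were direct neighbours among listed genes, *Frg2f10* and *Frg2f13*, and 7 lay within 500 kb of the next member. On chromosome 15, *Krt87*, *Gm5414* and *Krt18* followed each other at 185.2 and 400.0 kb in the region of the type II keratin genes. By biotype, 90 were protein-coding, 3 pseudogenes and 1 a long non-coding RNA, and their longest transcripts had a median of 2940 bases and 8 exons, close to the 3135 bases and 9 exons of genes with a Bnc1tr/tr mean of at least 1 FPKM.

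Exons of 8 members overlapped those of another listed gene, always on the opposite strand, and the library kit is not stated to keep strand, so their reads cannot be told apart there. Counting annotated genes without a row as well, 30 members had an overlap. Among these, *Rtp4*, *Egfl8*, *Gm128*, *Gm15411*, *9330159F19Rik* and *Vmn1r231* overlapped an unlisted gene on the same strand, so their reads are uncertain there too. *Sp9* overlaps *Cir1*, which had 24.37 to 36.37 FPKM in Bnc1tr/tr and 24.02 to 37.37 in WT, where *Sp9* was at 0.05, 0 and 0. *Vwa5b2* overlaps *Alg3*, which was listed higher in WT (21.83 to 31.60 FPKM) than in Bnc1tr/tr (18.97 to 19.22). *Tmem213* overlaps *Atp6v0a4*, at 4.33 to 4.92 FPKM in Bnc1tr/tr and 0.88 to 1.13 in WT, so the share of *Tmem213* in these reads is uncertain.

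Genes next to the members were then read, since the rule did not use their values. Of 185 distinct listed neighbours 106 were tested, and 51 (48.1%) were called higher in Bnc1tr/tr by limma and 5 (4.72%) lower, against 24.1% and 7.68% of all tested genes. The median log2 difference of the neighbours was 0.57, against 0.15 for all. After median-ratio scaling, 32.4% of tested neighbours were higher and 11.4% lower, against 18.3% and 14.7% of all tested genes, and after quantile normalization 32.4% and 12.4%, against 15.4% and 17.5%. The share called depended on level, and genes under 1 FPKM in WT enter the test only through high Bnc1tr/tr values. At a WT mean of 1 to 10 FPKM, 23 of 38 neighbours (60.5%) were called higher, against 25.5% of 4661 tested genes. At 10 FPKM or more, 13 of 50 neighbours (26.0%) were called, against 12.2% of 4939. Of 33 tested neighbours within 10000 bases, 13 were called higher and 2 lower. No test of these shares against each other was made.

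**Figure D4:**
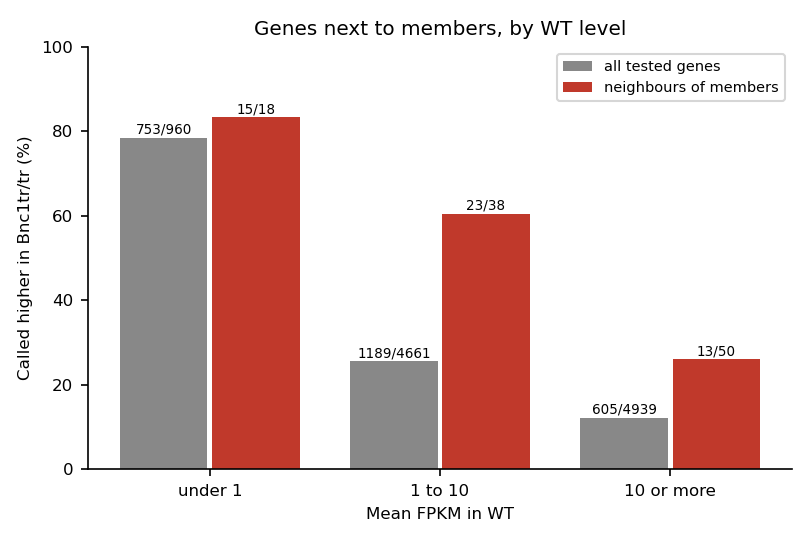
Share of genes called higher in Bnc1tr/tr by limma (y axis, %) among all tested genes (grey) and among the listed genes next to a member (red), by mean FPKM in WT, with counts above the bars. The red bars stand at 83.3%, 60.5% and 26.0% and the grey bars at 78.4%, 25.5% and 12.2%.

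Several of these neighbours belong to the same family or pathway as the member, and they were picked for naming after their values were seen. *Amdhd1*, an enzyme of the same histidine degradation pathway as *Hal* and 6577 bases from it, had 20.31, 19.90 and 19.19 FPKM in Bnc1tr/tr and 0.45, 0.52 and 0.80 in WT (log2 difference 3.72, limma adjusted p = 2.2e-06). *Ccl7* lies between the chemokine genes *Ccl2* and *Ccl11*. *Ccl2* had 157.68, 146.46 and 103.29 FPKM against 8.16, 7.60 and 24.69 (3.41, limma adjusted p = 0.00026), and *Ccl11* had 29.76, 25.24 and 10.42 against 2.52, 1.41 and 2.43. Each was higher in all 3 Bnc1tr/tr libraries than in any WT library.

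*Krt8*, the next listed gene to *Krt18*, had 22.79, 6.05 and 6.17 FPKM in Bnc1tr/tr and 1.05, 0.27 and 0.09 in WT, with its highest value in replicate 1 like *Krt18*. *Dmrt2*, next to *Dmrt3*, had 29.79, 30.23 and 24.35 against 0.67, 1.35 and 1.03. *Usp17lb*, next to *Usp17la*, had 24.06, 17.64 and 16.82 against 0.34, 0 and 0, and near-identical copies in this family make the split of reads uncertain. *Cd72*, a receptor of B cells next to *Sit1*, had 175.55, 242.35 and 159.82 against 3.69, 3.99 and 7.34. In each of these pairs the neighbour was more abundant than the member. The neighbour was also above 0 in at least 1 WT library, which the rule fixes for a non-member at such Bnc1tr/tr levels. *Krt88*, 8920 bases from *Krt87*, went the other way, at 5.47, 9.82 and 7.68 against 11.21, 13.45 and 10.78 (-0.59, limma adjusted p = 0.066), and did not pass the test.

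Promoters were found in RefSeq for 77 of the 94 members, in 97 windows of 300 bases from 250 before to 50 after the start. The CpG observed-to-expected ratio had a median of 0.44 in members' windows, against 0.74 in 11185 windows of genes with a Bnc1tr/tr mean of at least 1 FPKM and 0.38 in 2942 windows of genes at or below 0.1 FPKM in all WT libraries. A ratio over 0.6, a usual mark of CpG islands, was found in 31 of the 97 windows (32.0%), in 65.2% of windows of the genes at 1 FPKM or more and in 31.1% of those at or below 0.1 in WT. By CpG content the promoters of the members resembled those of genes listed near 0 in WT more than those of genes found in mutant oocytes. By the rule every member meets the definition of both sets, and the sets were not matched for level. Genes with several windows count several times, and these shares were not tested.

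**Figure D5:**
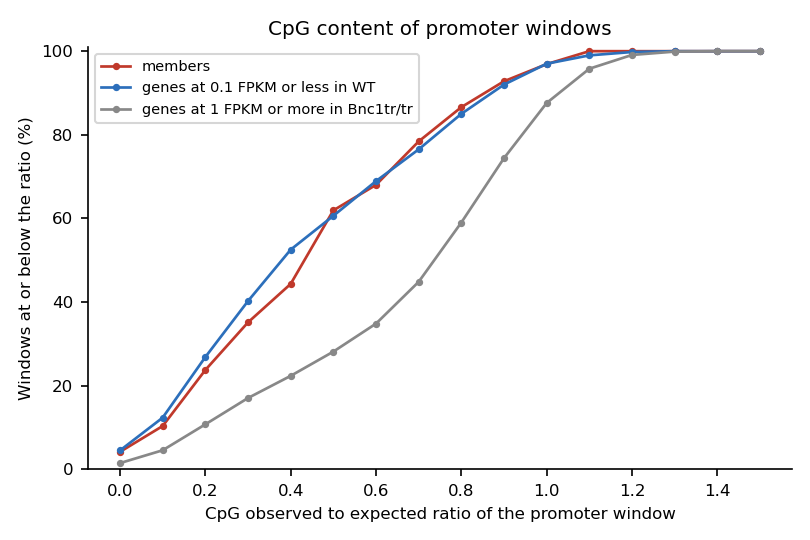
Cumulative share of promoter windows (y axis, %) at or below a CpG observed-to-expected ratio (x axis) for members (red), genes at or below 0.1 FPKM in all WT libraries (blue) and genes with a Bnc1tr/tr mean of at least 1 FPKM (grey). At a ratio of 0.6 the red curve stands at 68.0%, with the blue curve close to it and the grey curve far below.

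Short motifs were searched on both strands of the same windows. The GC box (GGGCGG) was in 35.1% of the members' windows and 52.7% of all 17358 windows. The CCAAT box (CCAAT) was in 37.1% and 38.3%, the TATA box (TATAAA) in 13.4% and 9.83%, the E-box (CACGTG) in 10.3% and 8.77%, and the AP-1 site (TGANTCA) in 10.3% and 6.14%. The cAMP response element (TGACGTCA) was in 1.03% and 2.53%, the GATA site (AGATAA) in 11.3% and 8.09%, the TEAD site (GGAATG) in 14.4% and 13.0%, the core of the antioxidant response element (TGACNNNGC) in 18.6% and 13.5%, and a homeobox site (TAATTG) in 8.25% and 6.00%. No motif of the 10 was in more than 37.1% of the windows, so none was common to most members.

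Membership in a programme was read from 16 marker lists of other cells and states, of which only 2 members, *Krt18* and *Usp17la*, were part. Without these 2, 36 of 75 tested list genes (48.0%) were called higher and 4 (5.33%) lower, against 24.1% and 7.68% of all tested genes. List genes under 1 FPKM in WT entered this test only through high Bnc1tr/tr values. With no filter on low values and both members included, 25.6% of 168 list genes were higher and 1.79% lower. Of all genes 15.6% and 3.83% were then called. The list shares were not split by WT level. For trophoblast and placenta, 4 of 4 tested genes were called higher, with sums of 236 to 295 FPKM in Bnc1tr/tr and 28.9 to 32.8 in WT. *Plac1* alone held 172.77 to 237.54 and 10.26 to 11.57 FPKM of these sums. Of the 10 listed genes of that list 5 were under 1 FPKM in all 6 libraries, and *Prl3d1*, *Prl3b1* and *Hand1* had no row. For stratified epithelium, 3 of 5 were called higher, with sums of 99.9 to 168 and 23.5 to 25.6. *Sprr1a* alone held 54.86 to 122.32 and 0 to 0.89 FPKM of these sums, while *Krt5*, *Krt14*, *Ivl*, *Lor* and *Flg* of this list had no row. For immediate early genes, 3 of 6 were called higher, with sums of 165 to 310 and 28.8 to 71.9, of which *Dusp1* held 155.06 to 292.74 and 25.68 to 64.72. *Elf5* of the trophoblast list missed the rule for members by 0.01 FPKM in WT replicate 1.

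On the remaining lists, called higher were 6 of 9 genes of pluripotency and primordial germ cells, 3 of 5 of liver, gut and pancreas (and 1 lower), 2 of 4 of neurons, 1 of 4 of spermatogenic cells, 1 of 2 of skeletal and heart muscle, 1 of 1 of kidney tubule and 0 of 2 of red blood cells. The sums for neurons were 69.2 to 95.8 FPKM in Bnc1tr/tr and 50.3 to 82.5 in WT, and for liver, gut and pancreas 208 to 297 and 165 to 220, so the groups overlapped on both lists. *Tubb3* held 53.49 to 80.83 and 42.7 to 74.56 FPKM of the sums for neurons. *Cpa1* held 139.24 to 192.34 and 114.22 to 162.15 FPKM of the sums for liver, gut and pancreas. Neither gene was called, so the overlap says little about the other genes of these lists. Among hepatocyte genes on the liver, gut and pancreas list, *Alb* and *Apob* were at 0 to 0.08 FPKM in both genotypes. *Apoa1* was at 0 in each Bnc1tr/tr library and at 0.44, 2.1 and 0 in WT, and *Ttr* and *Fabp1* had no row. *Afp* was called higher, at 2.5, 3.62 and 5.48 FPKM against 0.97, 1.2 and 1.8. The part of other cells in the levels of the hepatocyte, neuronal and epithelial genes and of the other members was not tested.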

How the data were processed

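Polyadenylated RNA of germinal vesicle oocytes was measured in 3 Bnc1tr/tr and 3 WT libraries. The authors deposited FPKM per gene for 17577 genes, rounded to 2 decimals, and read counts were not used here. The submitters' processing notes name HISAT2 2.0.4, Bowtie2 2.2.5, RSEM 1.2.12 and the build GRCm38.p6, with no role stated, so a listed 0 can be a failed assignment among similar genes. No molecular identifiers were used, so PCR copies are not independent molecules and depth floors cover counting error only.

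Members were genes with at least 1 FPKM in all Bnc1tr/tr and at most 0.1 in all WT libraries. The members and all lists were chosen with earlier results of these data known. Symbols turned into dates were repaired for 25 genes by Gene ID. Positions and promoters came from RefSeq, transcripts from GENCODE M21, and 31-base words shared with other genes were counted. As background, limma 3.58.1 in R 4.3.3 compared the groups on the log2(FPKM + 1) scale, which understates changes of low genes. Genes averaging 1 FPKM or more entered, and calls needed a p under 0.05 after Benjamini-Hochberg adjustment and a log2 difference beyond 0.5 in size. It was tested on simulated data. Steps between low FPKM values of genes with 1 transcript of 450 to 1600 bases gave an estimate of depth.

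Library values were given for the 20 members with the highest Bnc1tr/tr mean, the 3 lowest, those highest in WT, the 3 genes just outside each threshold, members on a marker list and members of 1 family or next to each other. Of these, 1 member and 1 gene just outside a threshold are not reported here. Values for members singled out for their spread and for neighbours were chosen after they were seen. Alternatives were other thresholds, scalings, a pseudocount of 0.1, no filter, a replicate block and leaving out each library.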

Additional observations from a re-analysis of the deposited data

How the results depend on the processing

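The number of members rests on the thresholds: a WT ceiling of 0, 0.05, 0.2 and 0.5 FPKM gave 42, 68, 156 and 355 genes, and a Bnc1tr/tr floor of 0.5, 2 and 5 FPKM gave 184, 43 and 12. Quantile normalization gave 39 and the other 2 scalings 81 each, and without genes sharing over 50% of their words 91 were left. Leaving out 1 library gave 112 to 141. The mirror of the rule gave 1 and 15 genes at ceilings of 0 and 0.5, 0 at floors of 2 and 5, and 3 to 4 with 1 library left out. Over all tested genes, calls were 1627 higher after quantile normalization, and lower calls were 1542, 1804 and 1848 after median-ratio, upper-quartile and quantile scaling. With 1 library left out, higher calls ran from 1867 to 2560 and lower calls from 416 to 1037, the lowest without WT replicate 2 (523 and 535 without Bnc1tr/tr replicates 1 and 3). Neighbours called higher ran from 34 to 56 and list genes, both members included, from 29 to 43 over all alternatives, against 51 and 38. With the replicate block, 2781 genes were called higher and 952 lower, with 56 neighbours and 42 list genes. Deviations of same-numbered libraries correlated at 0.28, -0.03 and 0.12, so the numbers were not taken as pairs. Count models were not run because the values are FPKM. The cause of these changes was not tested, other than the wider or narrower thresholds and fewer libraries themselves. Depth limits the absence of members in WT: values under about 0.0735 FPKM on a median member rest on 3 fragments or fewer.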
